A study of Mus musculus with 24 samples.

Results

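Spon2 encodes spondin 2, also called mindin, and Spon1 encodes F-spondin, its relative in the spondin family. Spon2 was selected on its measured level, as earlier results of these data had placed its transcript lower at ZT12 than at ZT0, and Spon1 was added as its relative. Both were found by Ensembl identifier (ENSMUSG00000037379 and ENSMUSG00000038156) and are 2 of 52350 genes listed for each library. Both are also among the 15294 genes that had enough counts to be tested.

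Transcripts were counted in the hearts of 24 male wild-type (WT) mice of the strain C57Bl/6, aged 12 weeks and housed with 12 h of light and 12 h of darkness. Time of day is written as zeitgeber time (ZT), the hours since the lights came on, so the rest phase of a mouse starts at ZT0 and its active phase at ZT12. The labels give 4 groups of 6 mice, which are sedentary at ZT0 (ZT0-SED), exercised at ZT0 (ZT0-EX), sedentary at ZT12 (ZT12-SED) and exercised at ZT12 (ZT12-EX). Exercised mice, habituated to the treadmill beforehand, ran for 60 min at 10 m/min and 0% grade, and the labels do not say how long after the run hearts were taken. In each group replicates 1 to 3 were sequenced on flow cell 1 and replicates 4 to 6 on flow cell 2, and the labels call each replicate biological.

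Spondins are secreted proteins of the extracellular matrix that combine a spondin domain with thrombospondin repeats. Mindin binds integrins on immune cells and microbial surface molecules, and it has been studied in mouse models of cardiac hypertrophy and remodelling. F-spondin was first described in the developing nervous system, where it guides axons, and it binds the amyloid precursor protein and receptors of the low-density lipoprotein receptor family. The molecular clock that sets daily rhythms in heart cells is a loop in which Bmal1 pairs with Clock or Npas2 to drive the Per and Cry genes, whose products then repress that pair.

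Library totals ranged from 9697334 to 23067191 counts. All 8 cardiomyocyte markers examined were detected, with a summed level of 29200 to 165000 CPM (counts relative to library size, here scaled by the TMM method). Transcripts encoded by the mitochondrial genome took 40.7% to 55.1% of counts in ZT12-SED 1, 2 and 3, 25.5% to 36.6% in the other libraries of flow cell 1 and 2.7% to 23.7% on flow cell 2. Myh4, a myosin of fast skeletal muscle, lay at 202 to 866 CPM in 6 libraries of flow cell 2 (ZT0-EX 4, 5 and 6 and replicate 6 of the other groups) and at 0 to 0.757 CPM in the other 18. ZT12-SED 1, ZT12-SED 2 and ZT12-EX 4 were the libraries least correlated with the rest, and results for the spondins are given with and without these sets where they differ.

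Spon2 was readily detected in every heart taken at ZT0 and was low in every heart taken at ZT12, with no read in 1 of them. In ZT0-SED the level was 23.6, 22.5 and 28.9 CPM on flow cell 1 and 30.2, 37.0 and 18.8 CPM on flow cell 2, in replicate order. In ZT0-EX it was 26.7, 23.5 and 14.0 CPM on flow cell 1 and 12.8, 13.9 and 15.7 CPM on flow cell 2. The 3 exercised libraries of flow cell 2 and replicate 3 on flow cell 1 lay below every ZT0-SED library, while replicates 1 and 2 lay inside the ZT0-SED range. In ZT12-SED the level was 0, 0.874 and 3.39 CPM on flow cell 1 and 4.22, 2.19 and 2.29 CPM on flow cell 2. In ZT12-EX it was 2.03, 0.564 and 1.35 CPM on flow cell 1 and 5.73, 6.16 and 1.67 CPM on flow cell 2.

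Every one of the 12 ZT12 libraries therefore had less Spon2 than every one of the 12 ZT0 libraries, with 6.16 CPM as the highest level at ZT12 and 12.8 CPM as the lowest at ZT0. Among all genes tested, 0.19% (29) were lower in all 12 ZT12 libraries than in all 12 ZT0 libraries. Within sedentary mice 0.811% of genes were lower without overlap of the groups, and within exercised mice 0.719%. Because Spon2 was chosen for this pattern, these shares are background and nothing is read from them. In raw counts Spon2 had 247 to 570 reads in each ZT0 library and 0 to 103 in each ZT12 library. The library without a read, ZT12-SED 1, is also the shallowest, and a count of 3 there corresponds to 0.575 CPM, so counting error alone allows a level up to that value.

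**Figure D1:**
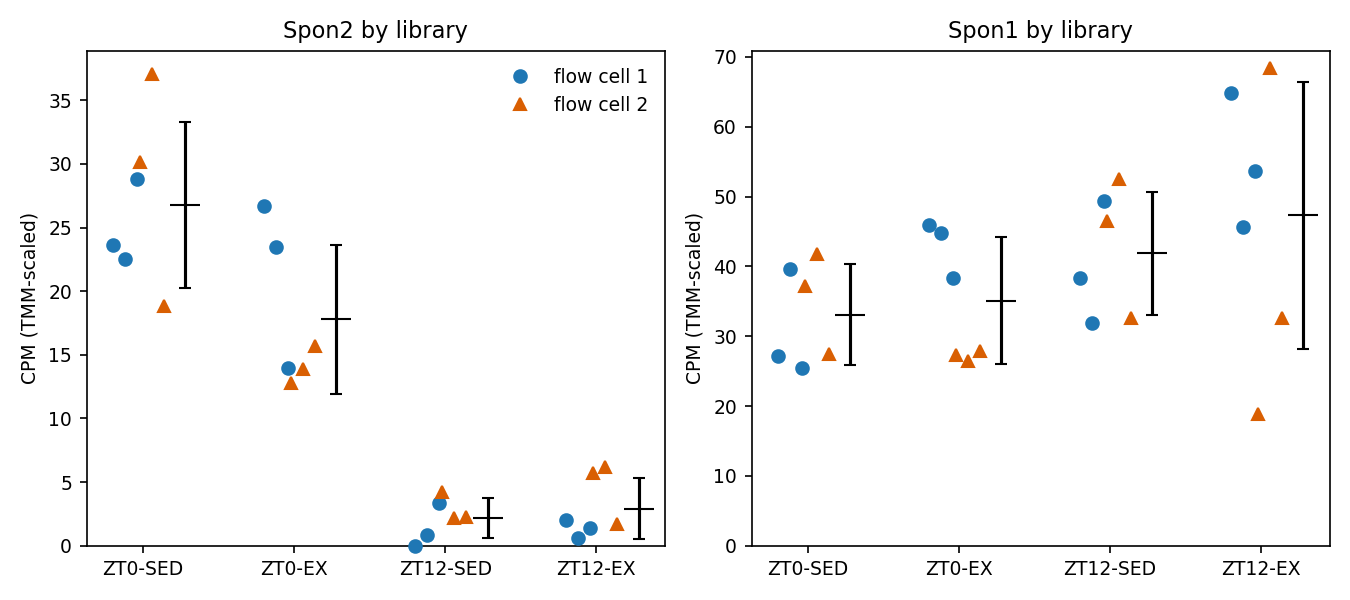
Level of Spon2 (left) and Spon1 (right) in each of the 24 libraries, in TMM-scaled CPM on linear axes that start at 0, with circles for flow cell 1, triangles for flow cell 2 and black bars for the mean ± SD of 6 libraries per group. All ZT12 libraries lie at or below 6.16 CPM of Spon2 and all ZT0 libraries at or above 12.8 CPM, while the 4 groups overlap for Spon1.

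The group means of Spon2 were 26.8 ± 6.52 CPM in ZT0-SED, 17.8 ± 5.85 CPM in ZT0-EX, 2.92 ± 2.40 CPM in ZT12-EX and 2.16 ± 1.55 CPM in ZT12-SED (SD, n = 6 each), in descending order. Neighbours in this order overlapped at each time of day, and the gap lay between ZT0-EX and ZT12-EX. Whether a lower level in whole hearts reflects fewer cells that make the transcript or less transcript per cell cannot be told apart in bulk RNA.

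The fitted log2 fold change of Spon2 from ZT0 to ZT12 was -3.57 ± 0.47 (SE; 95% interval -4.55 to -2.60) in sedentary mice, an 11.9-fold lower level. In exercised mice it was -2.77 ± 0.46 (95% interval -3.73 to -1.82), a 6.84-fold lower level. Both estimates describe the pattern that led to the choice of the gene, so no p is given for them. By size of the fall, Spon2 stood in place 2 of 15294 genes in sedentary mice, next to Bmal1, the clock activator, at -4.21 and ahead of Npas2 at -3.12. In exercised mice it stood in place 5.

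The sedentary and exercised estimates compare different libraries but come from a single fit with a shared flow cell term and dispersion, so they are not independent. The gap was present on both flow cells. In sedentary mice the lowest ZT0 library exceeded the highest ZT12 library 6.64-fold on flow cell 1 and 4.46-fold on flow cell 2. In exercised mice the same gap was 6.90-fold for flow cell 1 and 2.08-fold for flow cell 2. Such a gap was common on flow cell 1, where 29.3% of all genes in sedentary and 22.9% in exercised mice were lower at ZT12 without overlap, against 6.39% and 6.94% on flow cell 2. The estimate in exercised mice depended on the flow cell, at -4.01 in a fit to flow cell 1 alone and -1.58 in a fit to flow cell 2 alone. On flow cell 2 the ZT0-EX mean was 14.1 ± 1.47 CPM and the ZT12-EX mean 4.52 ± 2.48 CPM, against 21.4 ± 6.60 CPM and 1.31 ± 0.733 CPM on flow cell 1 (SD, n = 3 each).

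The base composition of what was sequenced also moved with time of day on flow cell 1. There, the Spearman correlation across genes between GC content and level (taken against the mean of all libraries) was -0.821 to -0.765 in ZT12-SED, -0.718 to -0.576 in ZT12-EX and -0.51 to 0.241 at ZT0. Genes are not independent replicates in these values. The Spon2 transcript is rich in GC, at 56.5%, which is the 85.5th percentile of 15288 genes, and Spon1 is at 49.7%, the 51st percentile. With an offset for GC content fitted to each library, the Spon2 estimate was -3.12 in sedentary and -2.52 in exercised mice. Without the 3 least correlated libraries it was -3.19 and -2.94, and without the 6 libraries that hold Myh4 it was -3.72 and -3.51.

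**Figure D2:**
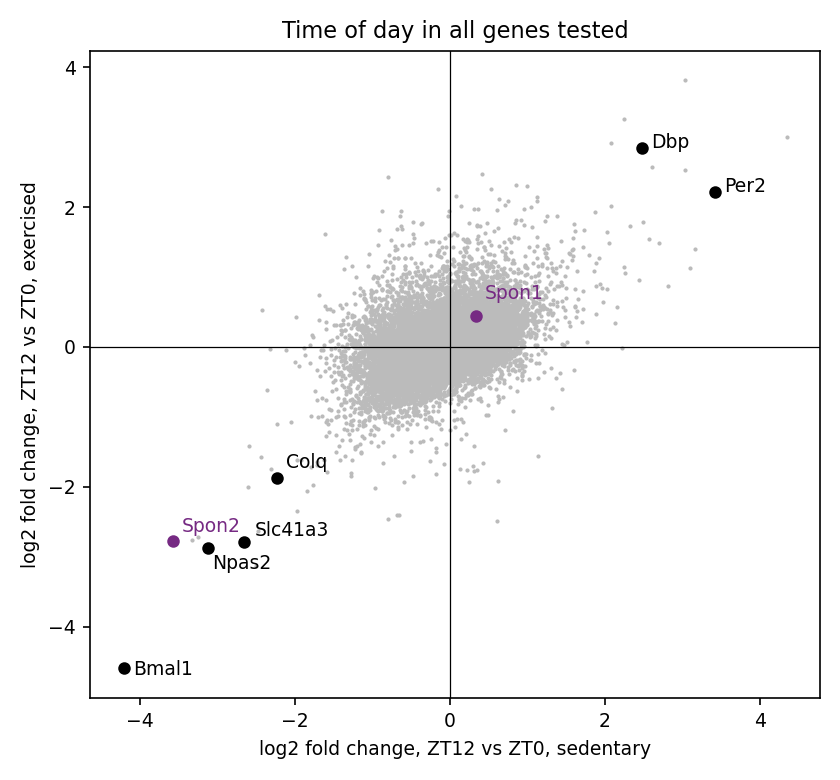
Fitted log2 fold change from ZT0 to ZT12 in sedentary mice (horizontal axis) and in exercised mice (vertical axis) for all 15294 genes tested, each a grey point, with the spondins in purple and clock genes and like genes in black. Spon2 lies far to the lower left at -3.57 and -2.77, near Npas2 and Slc41a3, and Spon1 lies inside the grey cloud at 0.34 and 0.44.

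Spon1 was detected at 18.8 to 68.4 CPM in all 24 hearts, with no gap between times of day. In ZT0-SED its level was 27.2, 39.6 and 25.5 CPM on flow cell 1 and 37.2, 41.8 and 27.5 CPM on flow cell 2, and in ZT0-EX it was 46.0, 44.8 and 38.3 CPM on flow cell 1 and 27.3, 26.4 and 27.9 CPM on flow cell 2. In ZT12-SED it was 38.4, 31.9 and 49.3 CPM on flow cell 1 and 46.5, 52.5 and 32.7 CPM on flow cell 2, and in ZT12-EX it was 64.9, 45.6 and 53.7 CPM on flow cell 1 and 18.8, 68.4 and 32.6 CPM on flow cell 2. Both the highest and the lowest of the 24 values are ZT12-EX libraries of flow cell 2, and all 4 groups overlapped. The group means were 33.1 ± 7.20 CPM in ZT0-SED, 35.1 ± 9.05 CPM in ZT0-EX, 41.9 ± 8.79 CPM in ZT12-SED and 47.3 ± 19.1 CPM in ZT12-EX (SD, n = 6 each), and no neighbours in this order differ beyond their spread.

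From ZT0 to ZT12 the Spon1 estimate was 0.34 ± 0.24 in sedentary mice (95% interval -0.16 to 0.84, adjusted p = 0.319) and 0.44 ± 0.24 in exercised mice (95% interval -0.06 to 0.94, adjusted p = 0.418). Adjusted p is from edgeR (quasi-likelihood test, Benjamini-Hochberg over the 15294 genes) throughout, and 0.05 is the threshold. For comparison, 5.2% of all genes passed it in sedentary mice and 1.65% in exercised mice. An exact two-sided permutation test that exchanged mice within flow cells gave p = 0.105 in sedentary and p = 0.27 in exercised mice, or 0.315 and 0.54 after adjustment over the 6 such tests run on the spondins. The upper ends of the intervals leave room for a rise of Spon1 by just under 1 on the log2 scale, and their lower ends lie above the estimates for Spon2.

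To set the genes side by side, levels were divided by the length of all annotated exons joined, 2947 bases for Spon2 and 10382 for Spon1. Per kilobase of this length, Spon2 was the more abundant spondin at ZT0 and the less abundant at ZT12. The order at ZT0 rests on these lengths. In plain CPM the mean of Spon1 was the higher there, at 33.1 against 26.8 in ZT0-SED and 35.1 against 17.8 in ZT0-EX. Spon2 stood at 9.11 ± 2.21 CPM per kb in ZT0-SED and 0.733 ± 0.528 CPM per kb in ZT12-SED, and Spon1 at 3.19 ± 0.693 and 4.03 ± 0.847 CPM per kb (SD, n = 6 each). In exercised mice Spon2 stood at 6.02 ± 1.98 CPM per kb at ZT0 and 0.990 ± 0.814 CPM per kb at ZT12, and Spon1 at 3.38 ± 0.872 and 4.56 ± 1.84 CPM per kb. The ratio of Spon2 to Spon1 in the same library, per kilobase, was 2.00 to 3.99 in ZT0-SED and 1.29 to 2.04 in ZT0-EX. At ZT12 it was 0 to 0.319 in sedentary and 0.0435 to 1.07 in exercised mice, where the library at 1.07 is ZT12-EX 4, which also has the lowest Spon1.

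A single bout of exercise gave no change in Spon2 that passed the threshold at either time. At ZT0 the estimate was -0.54 ± 0.41 (95% interval -1.39 to 0.31, adjusted p = 0.608), with 1.08% of all genes passing in that comparison. The exact permutation test of the same libraries, which uses mean log2 CPM within flow cells, gave p = 0.025, and 0.15 after adjustment over the 6 tests. As both use the ZT0-SED libraries, which also entered the contrast that led to the choice of Spon2, neither is independent of that choice. In 4 of 6 exercised mice Spon2 lay below the lowest sedentary library at ZT0.

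The Spon2 difference at ZT0 moved with the flow cell and with the removal of the libraries that hold Myh4. The difference of mean log2 CPM was -0.27 on flow cell 1, where the groups overlapped, and -0.97 on flow cell 2, where all 3 exercised libraries lay below all 3 sedentary ones, as for 8.4% of all genes. Those 3 exercised libraries all hold Myh4, and so does ZT0-SED 6 among the sedentary ones. The summed level of 10 skeletal muscle markers was 3220 to 5490 CPM in these exercised libraries against 1980 to 2770 CPM in ZT0-SED of the same flow cell. This sum did not follow Myh4 from library to library. Its highest value, 7140 CPM, was in ZT12-EX 4, which does not hold Myh4. The same library had the highest sum of the 8 cardiomyocyte markers, at 165000 CPM. In the skeletal muscle sum ZT0-SED 4, also without Myh4, stood at 2770 CPM against 2200 CPM in ZT0-SED 6. Whether the skeletal muscle sum followed heart muscle RNA was not tested. Without the 6 libraries that hold Myh4 the estimate was 0.02 ± 0.47 (adjusted p = 0.994), from the 3 exercised libraries of flow cell 1 only. The part of skeletal muscle RNA in the difference was not tested.

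At ZT12 the Spon2 estimate for exercise was 0.26 ± 0.47 (95% interval -0.71 to 1.23, adjusted p = 0.778), with 0.294% of all genes passing, and the exact permutation test gave p = 0.47 (0.705 adjusted over the 6 tests). This comparison and the difference between both exercise effects use sedentary libraries of the contrast that led to the choice of Spon2, so neither is independent of that choice. ZT12-EX 4 and ZT12-EX 5 lay above every ZT12-SED library and the other 4 lay inside the sedentary range. The direction rests on few reads. It turned to -0.09 without ZT12-EX 5 and to -0.33 without the 3 least correlated libraries. On flow cell 1 the fitted estimate was -0.39 while the difference of mean log2 CPM was 0.80, since the library without a read weighs more on the log scale. The difference between both exercise effects was 0.80 ± 0.63 (95% interval -0.49 to 2.09, adjusted p = 0.613). In that comparison edgeR called 0% of all genes (0 genes), with 1226 genes at an unadjusted p under 0.05, and DESeq2 called 5 and limma-voom 0.

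Spon1 did not pass the threshold for exercise either. The estimate was 0.06 ± 0.24 at ZT0 (95% interval -0.44 to 0.56, adjusted p = 0.941) and 0.16 ± 0.24 at ZT12 (95% interval -0.34 to 0.66, adjusted p = 0.735). Its direction was opposite on the flow cells at both times. At ZT0 the difference of mean log2 CPM was 0.51 (flow cell 1) and -0.36 (flow cell 2), and at ZT12 it was 0.46 and -0.31. The exact permutation tests gave p = 0.655 at ZT0 and p = 0.84 at ZT12, or 0.786 and 0.84 adjusted over the 6 tests. The interaction, the difference between both exercise effects, was 0.10 ± 0.34 (95% interval -0.60 to 0.81, adjusted p = 0.911).

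**Figure D3:**
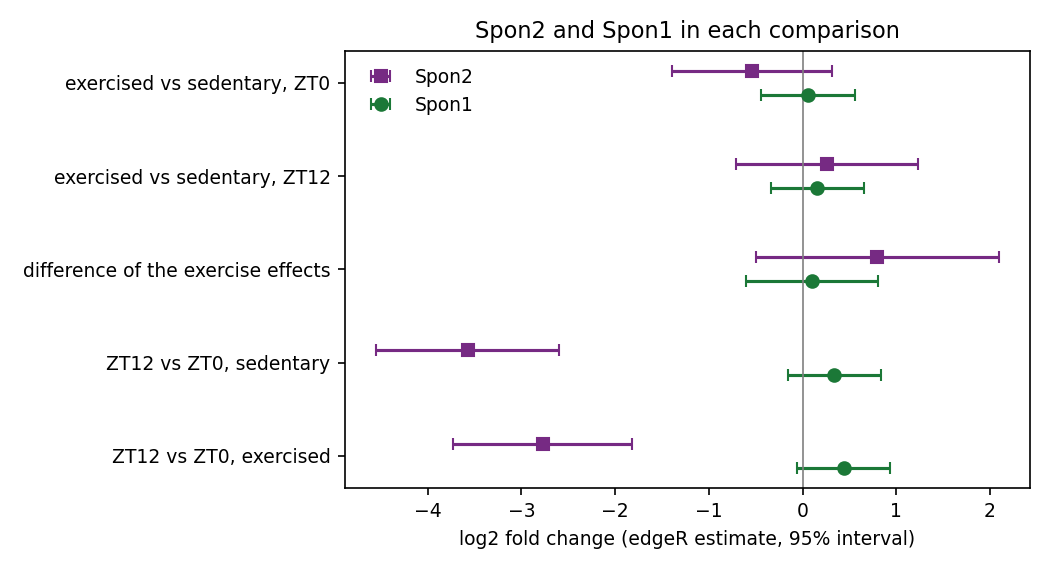
Fitted log2 fold change with its 95% interval for Spon2 (purple squares) and Spon1 (green circles) in the 5 comparisons, where the grey line marks no change. The intervals of Spon2 lie wholly below 0 in both time-of-day comparisons, which led to its choice, and all other intervals include 0.

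Variation among mice of the same group and flow cell differed between the spondins. The residual SD of log2 CPM for Spon2 was 0.377 in ZT0-SED and 0.362 in ZT0-EX, close to the median over all genes of 0.347 in the former and above the 0.176 of the latter. At ZT12, with 0 to 103 reads per library, it was 1.79 in sedentary and 0.936 in exercised mice, against medians of 0.351 and 0.491. The value in ZT12-SED rested on ZT12-SED 1, whose log2 CPM of -3.08 was set by the prior count as it had no read. Without it, an alternative chosen after seeing the data, the residual SD was 0.852, against a median of 0.213. For Spon1 it was 0.327, 0.104, 0.335 and 0.683 in ZT0-SED, ZT0-EX, ZT12-SED and ZT12-EX. After removal of the mean of each group on each flow cell, Spon2 and Spon1 had a Pearson r of 0.261 (permutation p = 0.349) and a Spearman rho of 0.403 (permutation p = 0.137) over the 24 libraries. The r was 0.265 without the 2 libraries farthest in Spon2, 0.397 within flow cell 1 and 0.249 within flow cell 2. This is the single relation of its kind that was computed, and it did not pass the threshold.

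The genes whose level followed that of Spon2 most closely were named by the smallest root mean square difference between log2 CPM profiles over the 24 libraries, each profile centred on each flow cell, among 11510 genes of sufficient level. On this measure, where the profile of Spon2 itself has a spread of 2.05, the closest were Colq at 0.871, Slc41a3 at 1.09, Cited4 at 1.10, Col5a3 at 1.12, Npas2 at 1.13, Tmem171 at 1.14, Klhdc8a at 1.18 and Scx at 1.19. Colq encodes the collagen-like tail that anchors acetylcholinesterase in the matrix. Its level was 7.28 to 9.56 CPM in ZT0-SED (median 8.20) and 6.02 to 9.57 CPM in ZT0-EX (median 7.48). At ZT12 it was 0 to 2.92 CPM in sedentary (median 1.89) and 1.13 to 3.29 CPM in exercised mice (median 2.19), so the times of day did not overlap. ZT12-SED 1 had no read of Colq, as it had none of Spon2.

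Slc41a3, a member of a magnesium transporter family, stood at 34.9 ± 8.21 CPM in ZT0-SED, 5.96 ± 3.03 CPM in ZT12-SED, 44.2 ± 9.06 CPM in ZT0-EX and 6.60 ± 3.17 CPM in ZT12-EX (SD, n = 6 each). Npas2, the partner of Bmal1, stood at 5.66 ± 1.03 CPM in ZT0-SED and 0.634 ± 0.0576 CPM in ZT12-SED. Col5a3, a chain of type V collagen, stood at 22.0 ± 8.47 CPM in ZT0-SED and 4.79 ± 3.93 CPM in ZT12-SED. Scx, the tendon and connective tissue factor scleraxis, stood at 4.65 ± 2.93 CPM and 1.92 ± 1.94 CPM in the same groups. Cited4, a transcriptional co-regulator, stood at 17.1 ± 10.9 CPM in ZT0-SED and 5.81 ± 5.91 CPM in ZT12-SED, and at 8.31 ± 4.56 CPM in ZT0-EX and 5.37 ± 5.77 CPM in ZT12-EX, where the spread exceeds the difference. These genes were chosen for their likeness over all libraries, so their levels are a description with no test. Colq was among the closest 8 in each of 4 other ways of computing likeness, in which 3 to 6 of the 8 names were shared.

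**Figure D4:**
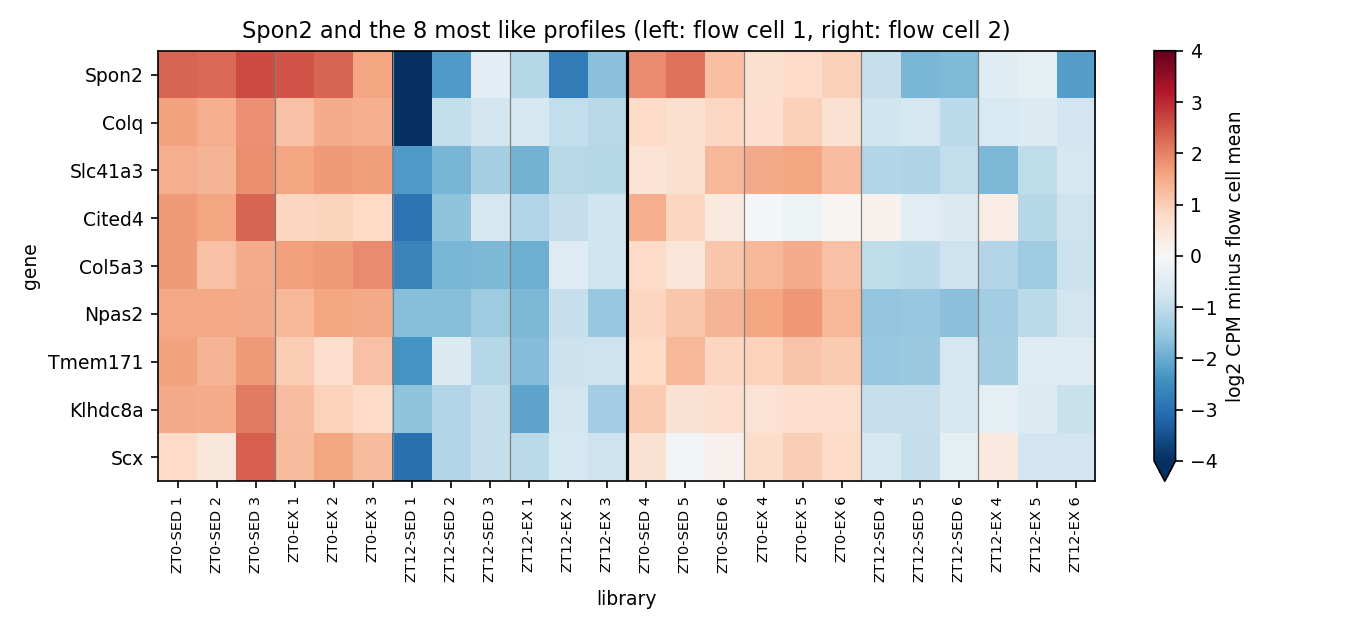
Log2 CPM of Spon2 and the 8 genes with the most like profile in each of the 24 libraries, centred on each flow cell, with red above and blue below that mean and values under -4 drawn at -4. The ZT0 libraries of Spon2 are red and its ZT12 libraries blue on both flow cells, and ZT12-SED 1 is the darkest blue column for Spon2 and Colq, which have no read there.

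The profile of Spon1 had a spread of 0.434, and its nearest profiles were those of Arsb at 0.186, Sulf1 at 0.196, Col14a1 at 0.214, Tcaf1 at 0.223, Golm1 at 0.238 and Vit at 0.239. Arsb is a lysosomal sulfatase, Sulf1 an extracellular sulfatase acting on heparan sulfate, and Col14a1 and Vit encode matrix proteins. Between 2 and 6 of these 6 names were shared with the other ways of computing likeness. None of them is among the 8 genes closest to Spon2.

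Clock genes served as a reference in the same hearts. Of 19 core clock and output genes tested, 10 rose and 3 fell from ZT0 to ZT12 in sedentary mice, where 2.46% of all genes rose and 2.74% fell. In exercised mice 9 rose and 3 fell, against 0.811% and 0.837% of all genes. Bmal1 fell from 24.3 ± 3.81 CPM in ZT0-SED to 1.40 ± 0.765 CPM in ZT12-SED (log2 fold change -4.21 ± 0.26, adjusted p = 3.77e-10). Per2, a repressor of the loop, rose from 3.21 ± 0.775 to 34.6 ± 6.69 CPM (3.42 ± 0.24, adjusted p = 1.81e-09), and Dbp, an output factor, rose from 10.6 ± 3.37 to 73.0 ± 57.0 CPM (2.48 ± 0.29, adjusted p = 6.89e-06). In exercised mice the same comparison gave -4.60 for Bmal1 (adjusted p = 5.98e-11), 2.21 for Per2 (adjusted p = 1.25e-06) and 2.84 for Dbp (adjusted p = 1.05e-06). After exercise at ZT0, 3 of the 19 rose and 0 fell, where 0.791% of all genes rose and 0.288% fell, and among the 3 were Per1 by 3.08 ± 0.39 (adjusted p = 6.19e-05) and Per2 by 1.72 ± 0.23 (adjusted p = 0.000126).

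A list of other genes with thrombospondin repeats, which left out the ADAMTS proteases, had a share of calls near that of all genes. Of 21 tested among 27 listed, 1 rose and 0 fell at ZT12 in sedentary mice, where 5.2% of all genes passed, with a median log2 fold change of -0.12 against -0.01 over all genes. The riser was Thbs2, a matricellular thrombospondin, at 0.66 ± 0.20 (adjusted p = 0.0489). The next by p did not pass, namely Sema5b, a semaphorin, at -1.03 (adjusted p = 0.0785), and Cilp, a matrix protein of cartilage and scar, at -1.13 (adjusted p = 0.0808). The list had 9 genes at an unadjusted p under 0.05, and DESeq2 called 4 and limma-voom 1. Over all genes tested in sedentary mice, 5040 had an unadjusted p under 0.05, and DESeq2 called 2917 and limma-voom 765. The list counts are to be read against these, and no enrichment is read from them. In exercised mice, where 1.65% of all genes passed, edgeR called 0 of 21 (3 at an unadjusted p under 0.05, DESeq2 1, limma-voom 0). There, 2193 of all genes had an unadjusted p under 0.05, and DESeq2 called 535 and limma-voom 280. Adamts4, a secreted ADAMTS protease with thrombospondin repeats that cleaves matrix proteoglycans, was outside the list and was picked out after its values were seen. It fell at ZT12, with a log2 fold change of -3.33 in sedentary mice (adjusted p = 2.09e-05) and -2.77 in exercised mice (adjusted p = 0.000113). Its level was low, with an average log2 CPM of -0.36 against 3.66 for Spon2.

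For exercise at ZT0, where 1.08% of all genes passed, edgeR called 0 of the 21 listed genes (5 at an unadjusted p under 0.05, DESeq2 0, limma-voom 0). At ZT12, where 0.294% passed, it called 0 (3 at an unadjusted p under 0.05, DESeq2 1, limma-voom 0). Without the 3 least correlated libraries it called 2 and 1. Over all genes in the full set, the unadjusted, DESeq2 and limma-voom counts were 1586, 267 and 174 at ZT0. At ZT12 they were 2504, 226 and 35. Adamtsl2, which regulates microfibrils in the matrix, had the smallest p in both comparisons, at 0.89 (adjusted p = 0.281) at ZT0 and 1.21 (adjusted p = 0.128) at ZT12. Thbs1 followed at ZT12, at 1.38 (adjusted p = 0.188). The list's median was 0.39 at ZT0 and 0.36 at ZT12, against -0.01 and 0.06 over all genes.

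Receptors and binding partners of the spondins, which are integrin subunits, amyloid precursor family members and lipoprotein receptors, showed 0 of 13 genes past the threshold by edgeR in all 5 comparisons. DESeq2 and limma-voom also called 0 in each, and 0 to 2 genes had an unadjusted p under 0.05. Over all genes the share that passed was 5.2% and 1.65% for time of day in sedentary and exercised mice, 1.08% and 0.294% for exercise at ZT0 and ZT12 and 0% for the interaction. Without the 6 libraries that hold Myh4, edgeR called 1 of the 13 for time of day in sedentary mice. Vldlr, a lipoprotein receptor, had the smallest p from ZT0 to ZT12 in sedentary mice, at 0.58 (adjusted p = 0.148). Itgam, the integrin subunit of myeloid cells that mindin binds, stood at -0.54 for exercise at ZT12 (adjusted p = 0.249). The list's median from ZT0 to ZT12 was 0.20 in sedentary and -0.15 in exercised mice.

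Among 9 genes of innate sensing of microbial products, Myd88, the adaptor of Toll-like receptors, fell at ZT12 in sedentary mice by 0.61 on the log2 scale (adjusted p = 0.027), and the other 8 did not pass in that fit, where 5.2% of all genes passed. In the same comparison 3 of the 9 had an unadjusted p under 0.05, DESeq2 called 3 and limma-voom 1. Over all genes tested these counts were 5040, 2917 and 765, so no enrichment is read from the list counts. Without the 6 libraries that hold Myh4, edgeR called 3 of the 9, and the share over all genes in that set is not given here. Ly96, a co-receptor of Tlr4, stood at 0.74 (adjusted p = 0.0823) and the adaptor Ticam1 at -0.81 (adjusted p = 0.0844). In the other 4 comparisons edgeR, DESeq2 and limma-voom called 0 of the 9, with 1 or 2 at an unadjusted p under 0.05.

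Of 24 matricellular proteins tested among 27 listed, 2 rose and 0 fell at ZT12 in sedentary mice, namely Thbs2 and Ccn2, where 2.46% of all genes rose and 2.74% fell. The list had 6 genes at an unadjusted p under 0.05 there, and DESeq2 called 3 and limma-voom 2. Ccn2, connective tissue growth factor, rose by 1.06 ± 0.28 (adjusted p = 0.0335) and also rose after exercise at ZT0, by 1.14 ± 0.28 (adjusted p = 0.0473). For exercise at ZT0, where 0.791% of all genes rose, edgeR called 1 of the 24 (4 at an unadjusted p under 0.05), DESeq2 2 and limma-voom 2. These comparisons share the ZT0-SED libraries. Ccn1, its relative, did not pass after exercise, at 0.74 at ZT0 (adjusted p = 0.0567, and past the threshold in 11 of 40 alternatives) and 0.73 at ZT12 (adjusted p = 0.11). For exercise at ZT12 edgeR called 0 of 24 (8 at an unadjusted p under 0.05, DESeq2 1, limma-voom 0), and for time of day in exercised mice 0 of 24 (10 at an unadjusted p under 0.05, DESeq2 2, limma-voom 0). The counts over all genes under each rule are those given above with the thrombospondin repeat list.

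Calls in these lists were near the threshold. With a single library left out in turn, Thbs2 lost its call in 19 of 24 fits, Ccn2 in 6 of 24 for time of day (without ZT12-SED 1 or 2 or ZT0-SED 1, 2, 3 or 4) and 17 of 24 for exercise at ZT0, and Myd88 in 5 of 24 (without ZT12-SED 1 or 2 or ZT0-SED 1, 2 or 3), with adjusted p up to 0.139, 0.105, 0.151 and 0.0914. The counts also moved in both directions with the libraries used. From ZT0 to ZT12 in sedentary mice edgeR called 1 gene of the thrombospondin repeat list, 1 of the innate sensing list and 2 of the matricellular list, against 0, 0 and 0 without the 3 least correlated libraries and 5, 3 and 4 without the 6 libraries that hold Myh4. Without the 3 least correlated libraries the matricellular list went from 0 to 6 calls for time of day in exercised mice, from 1 to 3 for exercise at ZT0 and from 0 to 2 for exercise at ZT12. The shares over all genes in these smaller sets of libraries are not given here, so nothing is read from these counts about the lists.

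Markers of cell types that could hold spondin transcripts were read beside the fall of Spon2. Of 8 fibroblast markers, Col1a1 fell by 0.98 (adjusted p = 0.0148) and Col3a1 by 0.85 (adjusted p = 0.05, just under the threshold before rounding) at ZT12 in sedentary mice, and by 1.27 (adjusted p = 0.00279) and 0.98 (adjusted p = 0.0473) in exercised mice. With a single library left out, Col3a1 lost its call in 20 of 24 fits in sedentary and 16 of 24 in exercised mice, and Col1a1 in 0 of 24 of either. The summed level of the 8 markers was 1140 to 2200 CPM in ZT0-SED, 833 to 2240 CPM in ZT0-EX, 958 to 3810 CPM in ZT12-SED and 433 to 3560 CPM in ZT12-EX, and these ranges overlapped over both flow cells together. On flow cell 1 alone every ZT12 library lay above every ZT0 library, with 2530 to 3810 CPM in ZT12-SED against 1640 to 2200 CPM in ZT0-SED and 2280 to 3560 CPM in ZT12-EX against 1820 to 2240 CPM in ZT0-EX. The share of all genes higher without overlap there is not given here. Genes lower without overlap were common on that flow cell, at 29.3% in sedentary and 22.9% in exercised mice. On flow cell 2 the sums were 958 to 1360 CPM in ZT12-SED against 1140 to 1770 CPM in ZT0-SED and 433 to 1430 CPM in ZT12-EX against 833 to 1120 CPM in ZT0-EX, with overlap in both. The median log2 fold change of the 8 markers was -0.029 in sedentary and 0.072 in exercised mice. The share of all genes that fell was 2.74% in sedentary and 0.837% in exercised mice.

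Of 8 endothelial markers Egfl7 fell at ZT12 in sedentary mice by 1.09 (adjusted p = 0.0416), and of 8 smooth muscle and pericyte markers Acta2 fell by 1.08 (adjusted p = 0.0233), where 2.74% of all genes fell. Left-out libraries ended the call of Egfl7 in 12 of 24 fits and that of Acta2 in 5 of 24 (without ZT12-SED 1, 2 or 3 or ZT0-SED 2 or 3). Summed endothelial markers were 802 to 1010 CPM in ZT0-SED and 442 to 987 CPM in ZT12-SED, and summed smooth muscle markers 596 to 1060 CPM and 671 to 1410 CPM. Of 9 macrophage and monocyte markers Cd163 rose by 0.96 (adjusted p = 0.0121), with sums of 504 to 827 CPM and 462 to 772 CPM. The Schwann cell and nerve marker Cdh19 rose by 1.49 (adjusted p = 0.0114, 1 of 5 tested), and the neutrophil marker Mmp9 fell by 1.28 (adjusted p = 0.0439, 1 of 4 tested). The atrial marker Nr2f2 rose by 0.80 (adjusted p = 0.05, just under the threshold before rounding, 1 of 8 tested). With a library left out, Cdh19 lost its call in 0 of 24 fits, Mmp9 in 14 and Nr2f2 in 19. In several lists the median log2 fold change of the tested markers had the opposite sign to the called gene. It was -0.303 for macrophages and monocytes, -0.875 for Schwann cells and nerve, 0.355 for neutrophils and -0.271 for the atrial list. The endothelial median (-0.142) and the smooth muscle and pericyte median (-0.286) had the sign of the called gene. Summed cardiomyocyte markers were 44200 to 79600 CPM and 32000 to 59700 CPM. The part of these cell types in the level of Spon2 was not tested.

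After exercise at ZT0, 1 fibroblast marker fell, Tcf21, a transcription factor of cardiac fibroblasts, by 0.94 (adjusted p = 0.027), and it lost that call in 7 of 24 fits with a library left out (ZT0-SED 3, 4 or 5 or ZT0-EX 3, 4, 5 or 6). Of all genes 0.288% fell in that comparison. The summed fibroblast markers overlapped between ZT0-SED and ZT0-EX on flow cell 1, while on flow cell 2 they were 1120, 833 and 990 CPM in ZT0-EX and 1470, 1770 and 1140 CPM in ZT0-SED. All 3 exercised libraries there lay below all 3 sedentary ones, with 1120 CPM as the highest exercised and 1140 CPM as the lowest sedentary sum. The same order held for Spon2 and for 8.4% of all genes tested. Summed lymphocyte markers were 19.3 to 39.4 CPM in ZT0-SED and 9.66 to 14.3 CPM in ZT0-EX. Of the 6 that could be tested, 0 passed the threshold by edgeR. The ranges do not overlap, but the share of all genes without overlap at ZT0 is not given here, so nothing is read from it. The part of these cell types in the level of Spon2 after exercise was not tested.

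Neither spondin overlaps another annotated gene. Of the 4 genes that flank them (Slc5a1 and Ctbp1 beside Spon2, Far1 and Rras2 beside Spon1), edgeR called 0 in either time-of-day comparison, with 2 and 0 at an unadjusted p under 0.05, and DESeq2 and limma-voom called 0. Over all 15294 genes edgeR called 5.2% and 1.65%, with 5040 and 2193 at an unadjusted p under 0.05 in sedentary and exercised mice. The log2 fold changes of the 4 flanking genes from ZT0 to ZT12 were -0.26 to 0.97 in sedentary mice (lowest adjusted p = 0.074) and -0.39 to 0.13 in exercised mice (lowest adjusted p = 0.37).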

How the data were processed

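Poly-A-selected RNA from 24 mouse hearts was sequenced as TruSeq libraries, per the labels' protocols. Reads were trimmed with Trimmomatic 0.39, aligned to GRCm39 with HISAT2 2.2.1 and counted with featureCounts 2.0.1 (Subread), per the submitters' processing notes. The roles of these tools are inferred from what they do, and their settings, the annotation release and strand use are not given in the sources. The deposited values are whole-number counts per Ensembl gene with no normalization. Symbols, exon lengths and GC content came from an annotation of another build (GRCm38) matched by identifier, and no coordinates of it are given. It lacked a symbol for 257 identifiers, which held 0.00128% of counts. Libraries of the same group all differed by more than sampling noise (60 pairs, chi-square of at least 13.3 per degree of freedom).

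The main test was the quasi-likelihood F test of edgeR 4.0.16 (R 4.3.3) with Benjamini-Hochberg adjustment across the 15294 genes that filterByExpr kept. TMM scaling was used, and a robust fit to all 24 libraries held terms for the group and the flow cell, which left 19 residual degrees of freedom. The fit was tested on simulated data. CPM and log2 CPM (prior count 2) used the same scaling. Differences within a flow cell are of mean log2 CPM unless called fitted. Exact permutation tests exchanged mice within flow cells (400 arrangements, smallest p 0.005), and correlation used 1e+05 permutations in Python 3.11.15. Intervals and floors cover counting error or the fitted spread only. The members, gene lists and tests were chosen with earlier results of these data known.

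Named genes were the spondins, the 8 and 6 genes of most like profile with average log2 CPM of at least 1 (predicted models skipped), up to 4 members per list by smallest p in sedentary time of day and up to 2 per exercise comparison, clock references and cell type markers. Lists were thrombospondin repeat relatives, spondin receptors and partners, innate sensing, matricellular proteins and core clock and output. Alternatives were scaling by library totals alone or by the size factors of DESeq2, leaving out mitochondrially encoded genes, no filter or a filter of 1 CPM in 6 libraries, the tests of DESeq2 1.42.0 and limma-voom (limma 3.58.1), no flow cell term, a replicate block, 2 surrogate variables (sva 3.50.0), GC offsets (splines with 5 degrees of freedom), each flow cell, the compared groups alone, libraries set aside, each library left out in turn, and a prior count of 0.5.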

Additional observations from a re-analysis of the deposited data

How the results depend on the processing

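Spon2 was lower at ZT12 in sedentary mice under all 40 alternatives, at -3.87 to -3.01 over 16 settings and -3.88 to -3.39 with a library left out in turn. In exercised mice it was lower under all 40 as well, at -3.09 to -2.52 with a library left out, and the estimate moved beyond its replicate spread to -4.01 on flow cell 1 alone and -1.58 on flow cell 2 alone. No exercise, interaction or Spon1 estimate passed the threshold under any alternative run, with a lowest adjusted p of 0.12 for Spon2 after exercise at ZT0 (compared groups alone) and 0.0717 for Spon1 over time in exercised mice. Several of these small estimates changed sign, and the cause was not tested. Spon2 after exercise at ZT0 turned to 0.021 without the 6 libraries that hold Myh4, and ranged from -0.75 to -0.41 with a library left out. Spon2 after exercise at ZT12 turned to -0.17 with 2 surrogate variables, -0.047 with GC offsets, -0.39 on flow cell 1 and -0.33 without the 3 least correlated libraries, and ranged from -0.093 to 0.537 with a library left out. The difference of exercise effects turned to -0.17 for Spon2 on flow cell 1. Spon1 after exercise at ZT0 turned to -0.046 with 2 surrogate variables and -0.42 on flow cell 2, and ranged from -0.035 to 0.156 with a library left out (negative without ZT0-SED 1, ZT0-SED 3, ZT0-EX 1 or ZT0-EX 2). Spon1 after exercise at ZT12 turned to -0.11 on flow cell 2 and ranged from -0.041 to 0.324 with a library left out (negative without ZT12-EX 5). The difference for Spon1 turned to -0.19 without the 6 libraries and ranged from -0.075 to 0.255 with a library left out (negative without ZT12-EX 5 or ZT0-SED 5).

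Counts over all genes moved widely. They went from 165 to between 13 (flow cell 2) and 568 (2 surrogate variables) for exercise at ZT0, from 45 to between 4 (flow cell 2) and 226 (DESeq2) for exercise at ZT12, from 795 to between 35 (flow cell 2) and 6552 (flow cell 1) for time of day in sedentary mice, and from 252 to between 17 (flow cell 2) and 1606 (2 surrogate variables) in exercised mice. Library totals without TMM shifted the median of all genes to -0.18 for time of day in sedentary mice, with 69 higher and 165 lower in place of 376 and 419, and to 0.20 for exercise at ZT12, with 20 and 5 in place of 29 and 16. The main fit did not treat mice of the same replicate number as paired. Of 36 correlations of same-numbered libraries, 15 exceeded 0.1 (median 0.01, range -0.445 to 0.781), and 10 of 24 libraries correlated best with their own number. These values do not settle whether the mice were paired. With a replicate block, counts were 160, 31, 0, 608 and 220 (main 165, 45, 0, 795 and 252), and Spon2 stood at -0.47 and 0.20 for exercise at ZT0 and ZT12 and at -3.58 and -2.90 for time of day. Depth limits Spon2 at ZT12, where 0 to 103 reads were counted per library.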

Other observations

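Some genes beside Spon2 in size of the fall at ZT12 lie outside every list and were chosen after their values were seen. Adamts4, at -3.33, was in place 3 among the falls in sedentary mice. Fabp7, a fatty acid binding protein, followed at -3.25 in place 4, and Foxs1, a forkhead transcription factor, stood at -2.59 in place 8. Their levels were low, with an average log2 CPM of -0.36 for Adamts4, 0.31 for Fabp7 and 1.43 for Foxs1, against 3.66 for Spon2.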
